A study of Mus musculus with 16 samples.

Results

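Replication-dependent histone genes, the genes that carry the symbols Hist1h to Hist4h, were examined in RNA-seq of F4/80+ adipose tissue macrophages (ATMs) from male mice on a high-fat diet (HFD). The members were all genes whose symbol begins with Hist1h, Hist2h, Hist3h or Hist4h, which gave 70 of the 37310 genes in the count table. By symbol, 6 belong to histone H1, 20 to H2A, 19 to H2B, 12 to H3 and 13 to H4. The annotation calls 3 of them pseudogenes, Hist1h2aj and Hist1h2al of H2A and Hist3h2bb-ps of H2B. The study compared wild-type (WT) mice with mice labelled IRF5-KO, in which floxed Irf5 alleles were combined with LysM-Cre, on a short-term HFD of 4 weeks (ST-HFD) and a long-term HFD of 12 weeks (LT-HFD). Each of the 4 groups held 4 libraries, and all mice, WT included, received HFD. LysM-Cre expresses the recombinase from the Lyz2 locus, so that deletion is limited to myeloid cells and need not be complete in each of them. The WT mice were littermates of the deleted mice, and macrophages were sorted from epididymal fat.

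Nucleosomes wrap DNA around an octamer of the core histones H2A, H2B, H3 and H4, and the linker histone H1 binds where DNA enters and leaves. A proliferating cell must build new nucleosomes behind its replication forks, and replication-dependent histone genes supply the protein during S phase. Their messengers end in a conserved stem-loop in place of a poly(A) tail. The stem-loop binding protein (Slbp), the U7 small nuclear ribonucleoprotein and a cleavage complex form that end, and the messengers decay when DNA synthesis stops. Replication-independent histones, such as H3.3 and H2A.Z, come from ordinary polyadenylated messengers in any phase of the cycle. The libraries were made from ribosome-depleted total RNA, which keeps RNA without a poly(A) tail. ATMs are known to proliferate locally in obesity, which makes S-phase messengers informative in this tissue. In bulk libraries, fewer cells that express a gene and less RNA of it per cell cannot be told apart.

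The stem-loop was searched in the annotated transcripts of the members as a pattern of 16 bases, and 43 of 68 members (63.2%) held it. The other 2, Hist2h3c1 and Hist2h2bb, were left out because their identifiers belong to overlapping noncoding transcripts in this annotation. Among all other annotated genes, 101 of 55378 (0.182%) held the same pattern. Several members without a match have annotated transcripts of coding length only, such as Hist1h2bn with 381 bases, Hist1h2ak with 393 and Hist1h4k with 312. Their annotated sequence holds no end to search, so no match there does not show that a stem-loop is absent. The 6 sequences shown here were chosen because they hold the 6 forms found among the members, each from the member with the highest level for that form. Each line gives the sense strand from the GENCODE M21 transcript on GRCm38, at chr13:23739505-23739534 (plus strand) for Hist1h1c, chr3:96220411-96220440 (minus) for Hist2h2ac, chr13:23561896-23561925 (minus) for Hist1h3e, chr13:23581943-23581972 (plus) for Hist1h4d, chr3:96262932-96262961 (minus) for Hist2h4 and chr13:23757359-23757388 (plus) for Hist1h4b. Capitals mark the stem-loop, whose first and last 6 bases pair around a loop of 4.
Hist1h1c: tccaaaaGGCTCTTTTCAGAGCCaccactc
Hist2h2ac: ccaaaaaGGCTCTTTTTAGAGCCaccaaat
Hist1h3e: ccaaaacGGCTCTTTTAAGAGCCacctcca
Hist1h4d: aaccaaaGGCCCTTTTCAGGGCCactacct
Hist2h4: ccctaacGGCCCTTTTTAGGGCCaaccaca
Hist1h4b: tacaaaaGGTCCTTTTCAGGACCactcact
The form shown for Hist1h1c was the most frequent, with 3 H1, 10 H2A, 8 H2B and 4 H3 members. The 11 H4 members with a stem-loop used other stems, namely the form of Hist1h4d in 7, of Hist2h4 in 2 and of Hist1h4b in 2. The annotated transcript ran on for more than 100 bases past the stem-loop in 21 members, for example for 840 bases in Hist1h1c, 770 in Hist1h4d and 1257 in Hist2h4. It ended 57 bases past it in Hist2h2ac and 28 bases past it in Hist1h4b.

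The promoters of the members also shared sequence, which the choice by symbol did not use. RefSeq promoter windows of 300 bases on GRCm38.p6 matched 61 members. A member counted when any of its windows held the letters, while other windows were counted singly. The CCAAT letters, on either strand, stood in 100% of the H1, H2A, H2B and H3 members and in 25.0% of the H4 members, against 37.3% of 32789 other windows. TATAAA stood in 57.4% of the members against 13.5% of the other windows. The octamer ATTTGCAT stood in 41.2% of the H2A and 43.8% of the H2B members, in none of the H1, H3 and H4 members, and in 1.7% of the other windows. By symbol the members fall into Hist1, Hist2, Hist3 and Hist4, and 15 pairs of them start back to back within 1000 bases, of which 14 pair an H2A with an H2B gene. The window of Hist1h2ac at chr13:23683910-23684209 (minus strand) is shown because it holds the start sites of both Hist1h2ac and Hist1h2bc, 251 bases apart, and both genes recur in the comparisons of diet duration. Capitals mark, on either strand, CCAAT or its complement, the octamer or its complement, and TATAAA.
Hist1h2ac: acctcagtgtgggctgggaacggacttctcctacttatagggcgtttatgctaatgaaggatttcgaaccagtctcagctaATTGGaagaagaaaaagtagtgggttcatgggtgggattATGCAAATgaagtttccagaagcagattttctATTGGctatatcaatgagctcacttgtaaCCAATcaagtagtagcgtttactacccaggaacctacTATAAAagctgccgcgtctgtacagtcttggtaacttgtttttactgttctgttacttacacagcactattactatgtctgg
Of the 3 CCAAT copies in it, 1 lay on the strand shown and 2 on the opposite strand. These matches are descriptions of letters, not of bound sites.

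The libraries held 3860469 to 4958131 counts on ST-HFD and 3279332 to 3792898 counts on LT-HFD. Only 3 features, a microRNA gene and both mitochondrial ribosomal RNAs, took 18.6 to 24.1% of counts on ST-HFD. They took 26.1 to 34.6% on LT-HFD. Neither depth nor this share overlapped between durations, so they cannot be told apart from diet duration. Irf5, the targeted gene, was at 202.9, 251.9, 247.7 and 247.8 CPM (counts scaled to a common library size with TMM factors) in WT on ST-HFD and at 250.4, 253.4, 273.5 and 269.6 CPM in the libraries labelled IRF5-KO. On LT-HFD it was at 207.1, 182.7, 213.1 and 170.5 CPM in WT and at 206.8, 253.5, 251.1 and 206 CPM in the libraries labelled IRF5-KO. So over the whole gene, the label IRF5-KO did not go with a lower Irf5 count. Counts of exons outside the floxed part do not check the deletion, and exon counts were not analysed here. Lyz2, the locus that carries Cre, was at 2968 to 4043 CPM in WT and 1395 to 2062 CPM in the libraries labelled IRF5-KO, without overlap. The 12 summed macrophage markers, Lyz2 among them, were at 13850 to 14800 CPM in WT and 11460 to 13080 CPM in the libraries labelled IRF5-KO on ST-HFD, and at 11570 to 14390 CPM and 9309 to 10230 CPM on LT-HFD. Without Lyz2 they overlapped on ST-HFD, at 10370 to 11710 CPM and 9491 to 11230 CPM. They did not overlap on LT-HFD, at 8597 to 10620 CPM in WT and 7609 to 8395 CPM in the libraries labelled IRF5-KO, and their part in the genotype comparisons was not tested. The p-values in all comparisons weigh a group difference against the spread between these libraries. For duration and the interaction, that spread was estimated over all 4 groups.

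The members had 87978 counts in all, 3269 to 9771 per library, or 0.087 to 0.198% of the library. Counts were found for 66 members and not for Hist2h2aa1, Hist1h2br, Hist1h2ap and Hist1h2aa. After the filter on low counts, 54 members were tested over all 16 libraries, 53 among the ST-HFD libraries and 51 among the LT-HFD libraries. The members that did not pass had up to 120 counts over all libraries (Hist1h2ah). A count of 0 allows up to 3 counts in a library, which covers counting error only. The Hist1 genes on chromosome 13 gave 89.9% of the members' counts from 56 genes, of which the pseudogene Hist1h2al (chr13:51202727-51203065) lies apart from the rest, and Hist2 on chromosome 3 gave 8.64% from 10. Hist3 on chromosome 11 gave 0.421% from 3 genes, and Hist4h4 on chromosome 6 gave 1.01%. By type, H1 gave 34.8% of the members' counts, H2A 19.3%, H2B 18.2%, H3 11.5% and H4 16.3%.

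**Figure D1:**
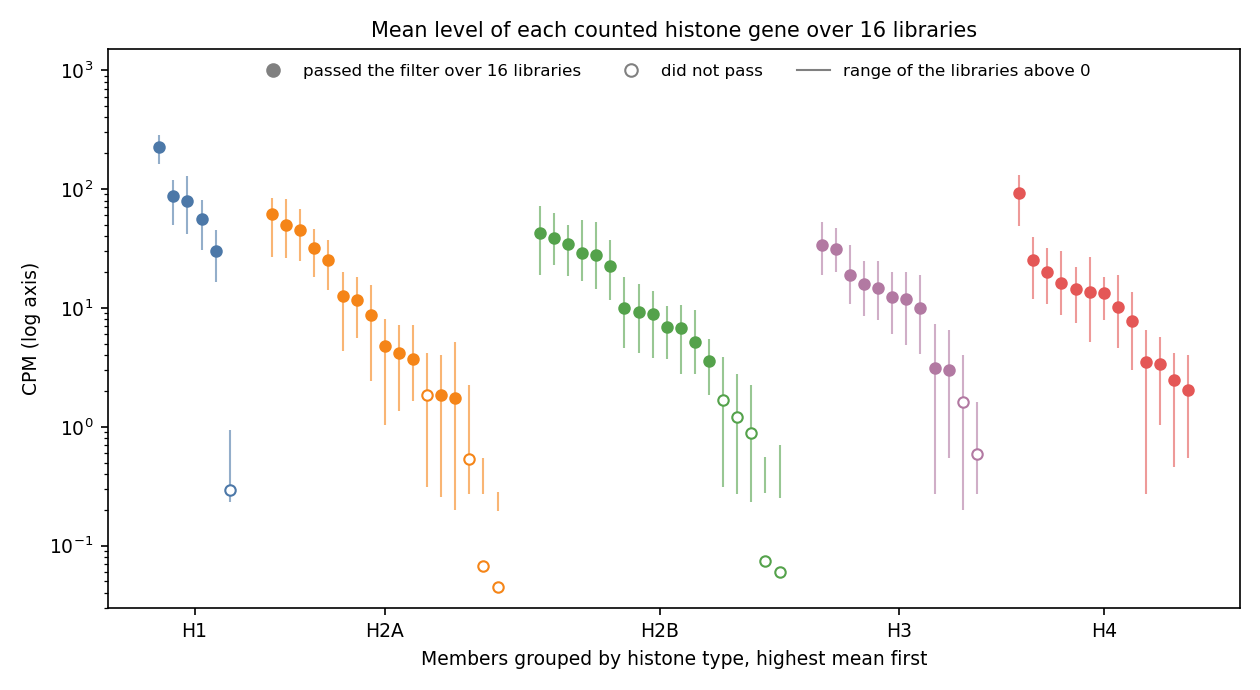
Mean level of the 66 counted members in CPM on a log axis, arranged by histone type, with lines from the lowest to the highest library above 0. Filled points passed the filter over 16 libraries and open points did not; values are not divided by gene length, and Hist1h1c had the highest mean at 223.8 CPM.

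The CPM values are not divided by length. To compare levels between genes, they were divided by length, as mean CPM per 1000 bases of RefSeq gene span, for 57 members. These had counts, a span of at most 1000 bases and no identifier that carries another symbol in GENCODE M21. Hist2h2bb was left out for its identifier. Hist1h1c, which encodes linker histone H1.2, was highest at 308.6 CPM per kb. Hist1h4d followed at 229.0, Hist1h2ak at 115.0, Hist1h1e at 111.0 and Hist1h1d at 102.9 CPM per kb. Below these, Hist1h2af was at 99.6, Hist2h2ac at 96.0, Hist1h2bn at 80.9, Hist1h3b at 67.7 and Hist1h4c at 67.7 CPM per kb. This order depends on the length used, and the annotation behind the counts is not given in the sources used here. RefSeq spans are 725 bases for Hist1h1c, 776 for Hist1h1d and 536 for Hist1h2ak. Their longest GENCODE M21 transcripts have 1560, 7425 and 393 bases in that order. Hist1h1t, the testis-specific H1, was near the bottom at 0.402 CPM per kb. The coding parts of these genes are nearly alike, and how the authors treated reads that fit several genes is not given in the sources used here. In 25 members, more than 50% of all windows of 100 transcript bases also stood in another gene. That share was 77.1% in Hist2h3b, 65.3% in Hist1h2af, 56.6% in Hist1h3b, 52.4% in Hist1h2ab and 52.1% in Hist1h2bn, so the values of these single genes are uncertain. It was 32.8% in Hist1h2bb, 31.8% in Hist1h4a, 14.0% in Hist1h4c, 7.68% in Hist1h2ac, 5.07% in Hist1h1c and 0 in Hist1h1a, Hist1h4d and Hist2h4. Hist2h2bb overlaps a long noncoding RNA on its own strand and another gene on the opposite strand, and reads from them cannot be told apart here. The annotation also has overlaps on the same strand for Hist1h1e, with Hist1h2be and a predicted gene, and for Hist1h2ac, with a predicted gene. On the opposite strand, predicted genes overlap Hist2h2ac, Hist2h3b, Hist1h2ak, Hist1h2af, Hist1h2ac and Hist1h2ab. Values of these genes carry the same limit.

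The summed level of all members varied widely between libraries of a group. In WT on ST-HFD it was 1479, 1034, 1481 and 1842 CPM (mean 1459 ± 330.6, SD, n = 4). In the libraries labelled IRF5-KO on ST-HFD it was 1169, 1073, 892 and 1556 CPM (mean 1172 ± 280.1, SD, n = 4). On LT-HFD it was 1341, 1142, 1457 and 956.9 CPM in WT (mean 1225 ± 220.8, SD, n = 4). It was 1352, 1902, 1894 and 1394 CPM in the libraries labelled IRF5-KO (mean 1636 ± 303.8, SD, n = 4). WT was thus above the libraries labelled IRF5-KO on ST-HFD and below them on LT-HFD by mean, and the ranges overlapped in both.

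**Figure D2:**
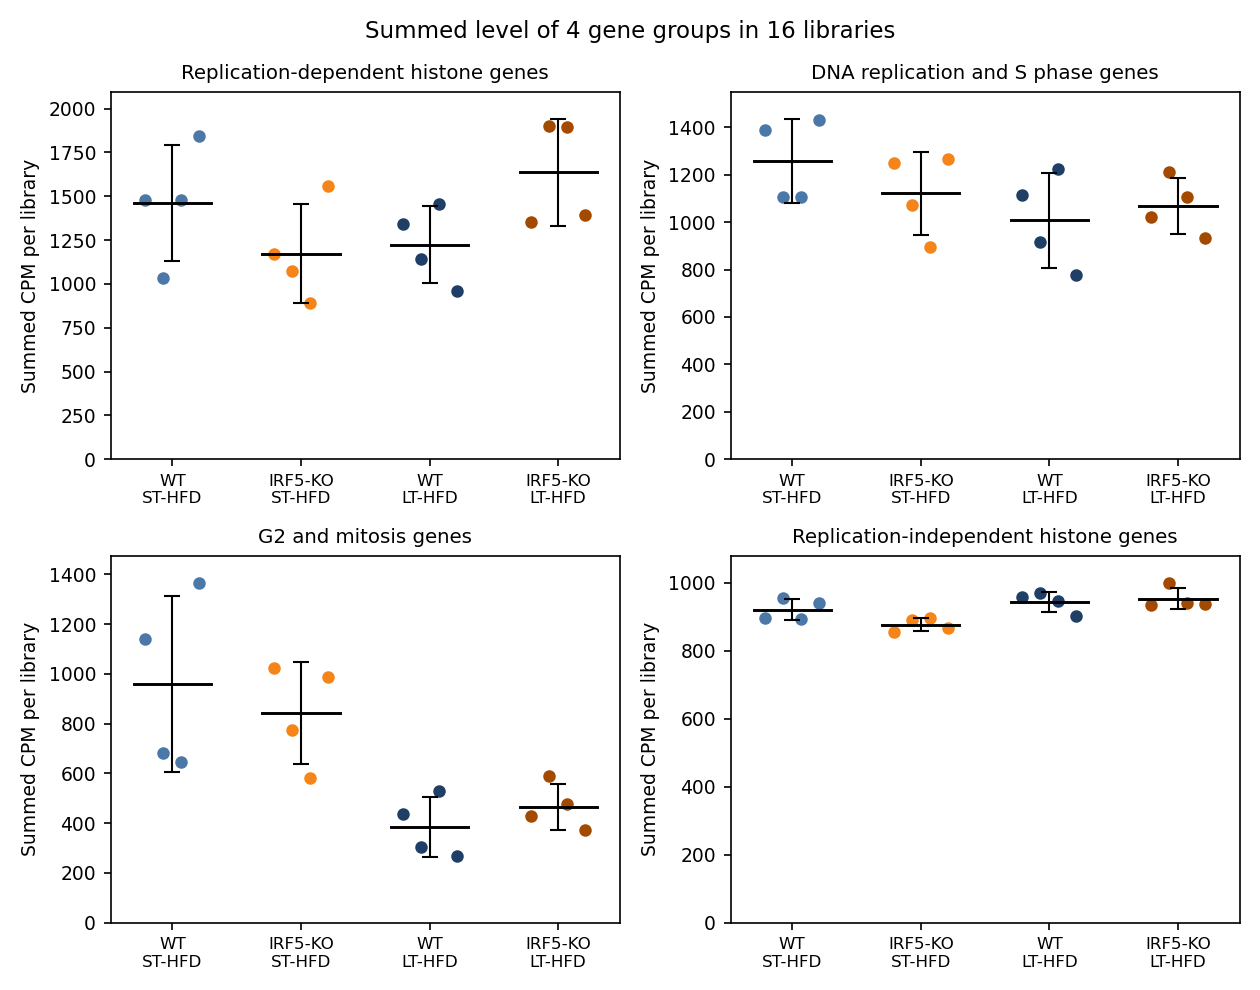
Summed CPM per library of the replication-dependent histone genes and of genes of S phase, of G2 and mitosis and of replication-independent histones. Points are libraries in replicate order, bars are group means and whiskers the SD (n = 4); the histone sum reached 1902 CPM in a library labelled IRF5-KO on LT-HFD and was lowest at 892 CPM in one labelled IRF5-KO on ST-HFD.

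By mean, each type was higher in WT than in the libraries labelled IRF5-KO on ST-HFD, and lower on LT-HFD. H1 was at 513.8 ± 121.3 CPM in WT and 424.4 ± 88.3 CPM in the libraries labelled IRF5-KO on ST-HFD, and at 418.3 ± 67.6 and 548.1 ± 106.9 CPM on LT-HFD (SD, n = 4 each). H4 was at 227.5 ± 46.5 and 184.3 ± 56.7 CPM on ST-HFD and at 206.4 ± 35.0 and 278.8 ± 46.0 CPM on LT-HFD. The H3 means were 174.4, 132.2, 134.6 and 186.2 CPM in the same order. For H2A they were 283.1, 227.1, 241.3 and 311.3 CPM, and for H2B 260.3, 204.5, 224.0 and 311.3 CPM.

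Within each group, the members were high or low in the same libraries. In WT on ST-HFD, replicate 4 had the highest value of 39 of 54 tested members and replicate 2 the lowest of 40. Among the libraries labelled IRF5-KO on ST-HFD, replicate 4 was highest for 44 and replicate 3 lowest for 32. In WT on LT-HFD, replicate 3 was highest for 34 and replicate 4 lowest for 34. Among the libraries labelled IRF5-KO on LT-HFD, replicate 2 was highest for 27, replicate 3 for 21, and replicate 1 lowest for 27. The single members are therefore not independent readings of a condition. The library with the highest histone sum also had the highest S-phase sum in 4 of 4 groups and the highest sum of G2 and mitosis genes in 3 of 4. The library with the lowest histone sum had the lowest sum of each in 2 of 4.

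The first comparison asked whether myeloid Irf5 deletion went with other histone messenger levels after 4 weeks of HFD. No member passed an adjusted p of 0.05 in edgeR, where 1 of 10958 genes did (0.00913%). Of 53 tested members, 48 had a lower estimate in the libraries labelled IRF5-KO, and the median log2 fold change was -0.36, against 0.00 over all genes tested. At an unadjusted p under 0.05, 4 members were lower and 0 higher, or 4 of 53 beside 0.894% of all genes (98 of 10958). DESeq2 also passed 0 members and gave 4 lower at an unadjusted p under 0.05. With the replicate number as a block, since same-numbered ST-HFD libraries deviated together, 15 were lower at that unadjusted level and 0 passed the adjusted threshold. The block also raised the number of all genes under that level, in either direction, from 202 to 451 of 10958. The medians by type were -0.30 for H1, -0.29 for H2A, -0.31 for H2B, -0.41 for H3 and -0.32 for H4.

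Hist1h4a, an H4 gene, was at 13.7, 11.8, 12.7 and 14.9 CPM in WT on ST-HFD and at 10.8, 8.49, 7.86 and 10.1 CPM in the libraries labelled IRF5-KO. These groups did not overlap. The log2 fold change was -0.51 (SE 0.18, edgeR adjusted p = 0.9998). Hist1h2ab, an H2A gene, was at 34.2, 28.8, 34.7 and 46.2 CPM in WT and at 22.9, 23.7, 18.3 and 32.7 CPM in the libraries labelled IRF5-KO (log2 fold change -0.57, SE 0.20). Its groups overlapped through replicate 4 of the libraries labelled IRF5-KO. Hist1h1a, which encodes H1.1, was at 41.0, 21.1, 34.4 and 42.4 CPM in WT and at 22.7, 22.9, 16.4 and 30.3 CPM in the libraries labelled IRF5-KO (log2 fold change -0.60, SE 0.24). Hist1h2bb, an H2B gene, was at 31.2, 19.7, 28.3 and 40.9 CPM in WT and at 18.1, 19.6, 15.3 and 29.5 CPM in the libraries labelled IRF5-KO (log2 fold change -0.56, SE 0.25). Hist1h1a overlapped through replicate 2 of WT, and Hist1h2bb through replicate 4 labelled IRF5-KO, which was above replicates 2 and 3 of WT. These 4 were the members with an unadjusted p under 0.05, and the edgeR adjusted p was 0.9998 for each.

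The count of 4 at an unadjusted p under 0.05 depended on single libraries. It was 1 without WT replicate 4, 2 without WT replicate 1, and 2 each without replicate 2 or replicate 3 labelled IRF5-KO. It was 17 without WT replicate 2 and 23 without replicate 4 labelled IRF5-KO. No member passed the adjusted threshold in any of these fits. The median log2 fold change of -0.36 was -0.17 without WT replicate 4, -0.22 without replicate 3 labelled IRF5-KO and -0.57 without replicate 4 labelled IRF5-KO.

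The same comparison after 12 weeks had estimates of the opposite sign. No member passed an adjusted p of 0.05 in edgeR, where 2 of 10987 genes did (0.0182%), and DESeq2 also passed 0 members. Of 51 tested members, 46 had a higher estimate in the libraries labelled IRF5-KO, with a median log2 fold change of 0.47 against 0.00 over all genes. At an unadjusted p under 0.05, 15 were higher and 0 lower, beside 2.23% of all genes (245 of 10987), and DESeq2 gave 13. The medians were 0.50 for H1, 0.40 for H2A, 0.44 for H2B, 0.50 for H3 and 0.48 for H4.

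Hist1h4c, an H4 gene, was at 21.2, 19.6, 23.4 and 19.9 CPM in WT on LT-HFD and at 27.9, 32.8, 39.9 and 31.2 CPM in the libraries labelled IRF5-KO. These groups did not overlap, with a log2 fold change of 0.64 (SE 0.15, edgeR adjusted p = 0.853). Hist1h1e, which encodes H1.4, was at 80.1, 50.3, 76.5 and 67.2 CPM in WT and at 84.9, 115.2, 110.1 and 80.3 CPM in the libraries labelled IRF5-KO, again without overlap (log2 fold change 0.50, SE 0.17). Its nearest libraries were almost level, at 80.06 CPM in WT and 80.31 CPM in one labelled IRF5-KO. Hist2h2bb also did not overlap, at 39.1, 42.3, 43.1 and 27.7 CPM in WT and 47.8, 72.1, 68.6 and 43.9 CPM in the libraries labelled IRF5-KO (log2 fold change 0.61, SE 0.20). Hist1h2bb was at 26.1, 18.5, 30.3 and 14.4 CPM in WT and at 26.8, 38.8, 53.1 and 38.0 CPM in the libraries labelled IRF5-KO (log2 fold change 0.80, SE 0.25). It overlapped in a single pair, since replicate 3 of WT was above replicate 1 labelled IRF5-KO. Hist1h4f was at 11.9, 9.08, 13.1 and 5.17 CPM in WT and at 11.9, 26.6, 21.1 and 13.3 CPM in the libraries labelled IRF5-KO, which overlapped (log2 fold change 0.89, SE 0.33). These were the 5 members with the smallest unadjusted p, and the edgeR adjusted p was 0.853 for each.

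Here too the count of 15 at an unadjusted p under 0.05 depended on single libraries. It was 4 without replicate 2 labelled IRF5-KO and 5 without replicate 3 labelled IRF5-KO, the libraries with the highest sums. It was 5 without WT replicate 4, 7 without WT replicate 2 and 25 without WT replicate 3. The median of 0.47 was 0.31 without WT replicate 4. That library had summed fibroblast and preadipocyte markers of 8802 CPM, against 3033 to 3485 CPM in the other 3 WT libraries. Replicates 2 and 3 labelled IRF5-KO also had the lowest summed dendritic cell markers of their group, 27.4 and 42.7 CPM against 63.6 and 89.3 CPM. Their summed T and NK cell markers were 7.05 and 10.4 CPM against 13.8 and 15.4 CPM. The part of these in the result was not tested.

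**Figure D3:**
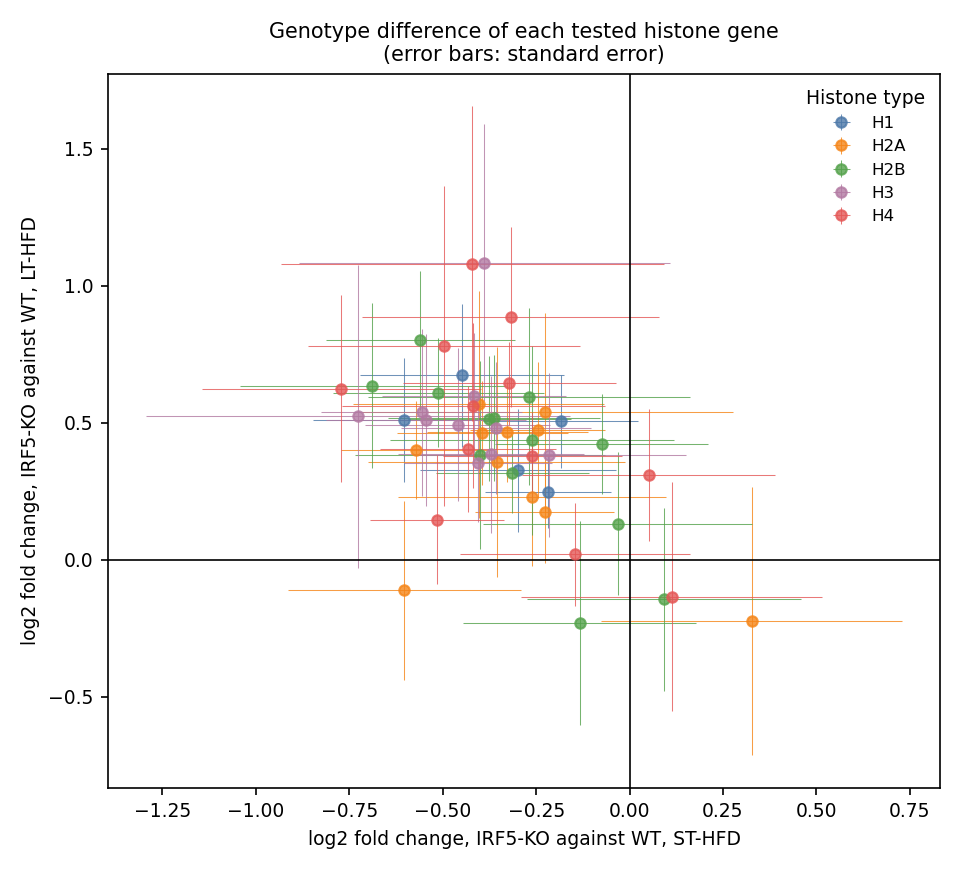
Log2 fold change of the libraries labelled IRF5-KO against WT on ST-HFD (x axis) and on LT-HFD (y axis) for each tested member, coloured by histone type, with bars of 1 SE. Most members sit left of 0 on the x axis (48 of 53 tested there) and above 0 on the y axis (46 of 51).

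The difference between both comparisons was tested directly as the interaction of genotype and diet duration. No member passed an adjusted p of 0.05 in edgeR, nor did any of 11560 genes (0.0%), and DESeq2 passed 0 members. The estimate was positive in 50 of 54 members, with a median of 0.81 on the log2 scale against -0.01 over all genes. At an unadjusted p under 0.05, 26 members were positive and 0 negative, beside 1.63% of all genes (189 of 11560), and DESeq2 gave 25. Among the 5 with the smallest unadjusted p, the estimates were 1.36 for Hist1h2bb (SE 0.38), 0.97 for Hist1h2ab (SE 0.27) and 1.11 for Hist1h1a (SE 0.35). They were 1.12 for Hist2h2bb (SE 0.36) and 1.01 for the H3 gene Hist1h3f (SE 0.34), each of the 5 with an edgeR adjusted p of 0.969. Hist1h3f was at 19.5, 11.4, 18.2 and 19.6 CPM in WT on ST-HFD and at 14.4, 11.8, 8.55 and 17.0 CPM in the libraries labelled IRF5-KO. On LT-HFD it was at 17.1, 10.8, 16.7 and 9.24 CPM in WT and at 17.14, 24.7, 21.9 and 18.2 CPM in the libraries labelled IRF5-KO. These did not overlap, but replicate 1 of each was almost level. The count of 26 ranged from 12 to 33 when single libraries were left out. It was 12 without WT ST-HFD replicate 4, 15 without replicate 2 labelled IRF5-KO on LT-HFD, 17 without replicate 3 of that group and 17 without replicate 3 labelled IRF5-KO on ST-HFD.

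**Figure D4:**
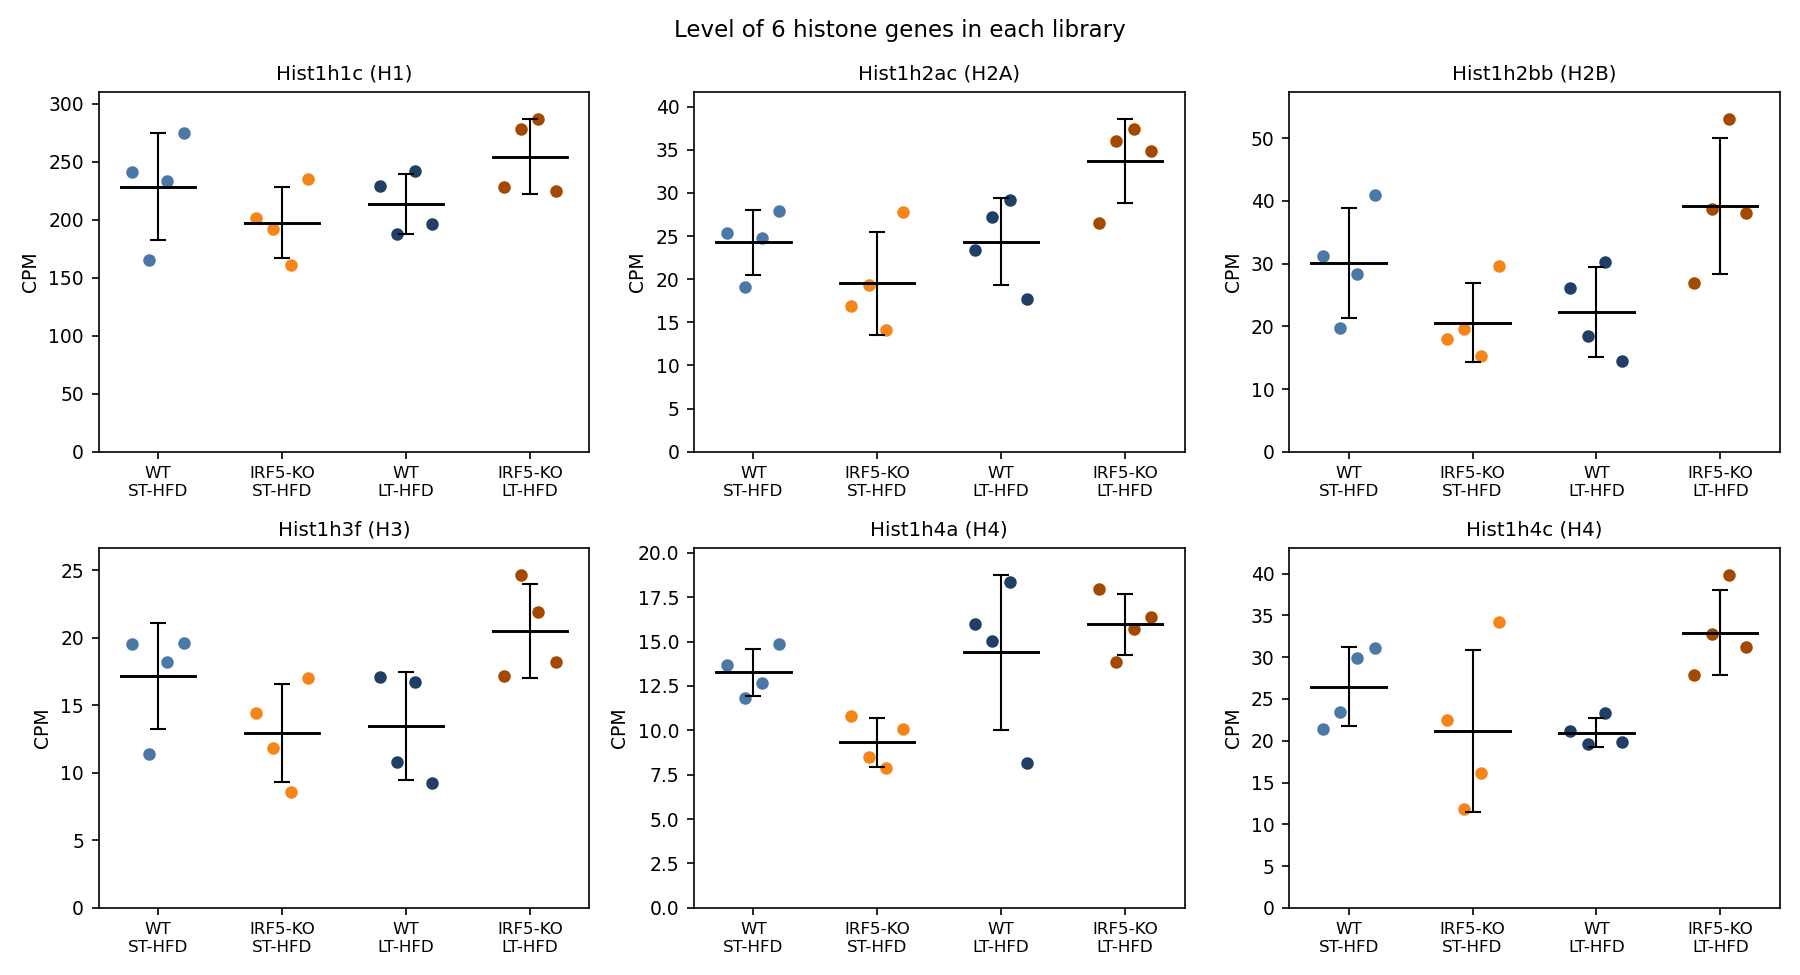
CPM in each of the 16 libraries for Hist1h1c, Hist1h2ac, Hist1h2bb, Hist1h3f, Hist1h4a and Hist1h4c, 1 or 2 genes per histone type. Points are libraries, bars group means and whiskers the SD (n = 4); Hist1h4c on LT-HFD shows WT at 19.6 to 23.4 CPM and the libraries labelled IRF5-KO at 27.9 to 39.9 CPM.

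Longer HFD was compared within each genotype. In the libraries labelled IRF5-KO, 13 of 54 members rose from ST-HFD to LT-HFD and 0 fell at an adjusted p under 0.05 in edgeR, beside 15.6% of all 11560 genes that rose. The estimate was above 0 in 51 of 54, with a median log2 fold change of 0.53 against 0.04 over all genes. The 13 comprised 1 H1, 3 H2A, 4 H2B, 1 H3 and 4 H4 genes. Diet duration and any batch of collection or library preparation cannot be told apart, since the labels give no batch.

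Hist1h2ac, an H2A gene, was at 16.8, 19.3, 14.1 and 27.8 CPM in the libraries labelled IRF5-KO on ST-HFD and at 26.5, 36.1, 37.4 and 34.9 CPM on LT-HFD. It rose by a log2 fold change of 0.79 (SE 0.20, edgeR adjusted p = 0.00622), and only replicate 4 on ST-HFD reached into the LT-HFD range. Its neighbour Hist1h2bc, an H2B gene, rose from 35.7, 30.4, 18.7 and 24.6 CPM to 37.9, 49.6, 46.1 and 34.9 CPM (log2 fold change 0.62, SE 0.18, edgeR adjusted p = 0.0127). Hist1h4a rose without overlap, from 10.8, 8.49, 7.86 and 10.1 CPM to 18.0, 13.8, 15.7 and 16.4 CPM (log2 fold change 0.77, SE 0.21, edgeR adjusted p = 0.00894). Hist1h3f, given with its values above, also rose without overlap (log2 fold change 0.66, SE 0.24, edgeR adjusted p = 0.0444). Its nearest libraries were almost level, at 16.99 CPM on ST-HFD and 17.14 CPM on LT-HFD. Hist1h2bb rose by 0.93 (SE 0.27, edgeR adjusted p = 0.0132) and Hist2h2bb by 0.88 (SE 0.26, edgeR adjusted p = 0.0144) on the log2 scale, and both overlapped between durations. Hist2h2ac rose from 33.9, 40.1, 24.7 and 48.3 CPM to 39.3, 67.5, 53.9 and 51.6 CPM (log2 fold change 0.53, SE 0.19, edgeR adjusted p = 0.0393).

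The other called members had log2 fold changes of 0.71 for Hist1h4h, 0.70 for Hist1h2bn, 0.66 for Hist1h1a, 0.64 for Hist1h2ab, 0.64 for Hist1h4c and 0.61 for Hist1h4d. Their edgeR adjusted p-values were 0.0307, 0.0309, 0.0470, 0.0168, 0.0463 and 0.0348 in that order. Hist1h4d, the most abundant H4 gene per RefSeq span, was at 82.4, 64.6, 48.5 and 105.6 CPM on ST-HFD and at 110.0, 130.7, 125.8 and 93.9 CPM on LT-HFD. Hist1h1c, the highest member per RefSeq span, was at 201.3, 192.4, 161.5 and 235.3 CPM on ST-HFD and at 228.4, 278.4, 287.1 and 224.6 CPM on LT-HFD, and did not pass the test. The estimates below 0 were -0.41 for Hist1h2bh, -0.48 for Hist3h2a and -0.04 for Hist1h4m, and none of these passed. The count of 13 was 4 without replicate 3 on LT-HFD, 6 without replicate 2 on LT-HFD, and 8, 6 and 4 without replicates 1, 2 and 3 on ST-HFD. It was 21 without replicate 4 on ST-HFD, and 7 with library totals in place of TMM factors.

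In WT, 2 of 54 members fell from ST-HFD to LT-HFD and 0 rose at an adjusted p under 0.05 in edgeR, beside 13.2% of all genes that fell (1527 of 11560). The estimate was below 0 in 43 of 54, with a median log2 fold change of -0.32 against 0.02 over all genes. Hist2h3b, an H3 gene, fell from 13.3, 9.98, 10.1 and 18.9 CPM to 9.23, 5.94, 9.46 and 4.08 CPM without overlap (log2 fold change -0.86, SE 0.29, edgeR adjusted p = 0.0366). Hist1h2af, an H2A gene, fell from 64.2, 49.5, 49.3 and 82.2 CPM to 40.2, 35.3, 53.7 and 26.1 CPM (log2 fold change -0.66, SE 0.22, edgeR adjusted p = 0.0353). Only WT replicate 3 on LT-HFD reached into its ST-HFD range. Among members that did not pass, Hist1h1e had a log2 fold change of -0.48, Hist1h4i of -1.18 and Hist1h2bm of -0.78. The count of 2 was 1 without WT LT-HFD replicate 1 and 0 without WT LT-HFD replicate 2 or 4 or without WT ST-HFD replicate 1 or 4. It was 0 when only the 8 WT libraries were fitted. The median of -0.32 was -0.14 without WT ST-HFD replicate 4 and -0.13 without WT LT-HFD replicate 4.

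Averaged over both genotypes, 3 members rose and 0 fell, beside 22.0% of all genes that rose (2539 of 11560), with a median log2 fold change of 0.13 against 0.04. These were Hist1h4a (0.44, edgeR adjusted p = 0.0204), Hist1h2ac (0.40, edgeR adjusted p = 0.0325) and Hist2h4 (0.55, edgeR adjusted p = 0.0436). In WT alone their log2 fold changes were 0.11, -0.00026 and 0.42 in that order, and none passed. In the libraries labelled IRF5-KO they were 0.77, 0.79 and 0.68, and Hist2h4 did not pass. The average of Hist1h4a and Hist1h2ac thus came mainly from the libraries labelled IRF5-KO. Hist2h4 was at 8.98, 4.64, 11.6 and 6.97 CPM in WT on ST-HFD and at 11.9, 11.2, 8.07 and 12.0 CPM on LT-HFD. In the libraries labelled IRF5-KO it was at 4.61, 8.23, 8.78 and 12.1 CPM on ST-HFD and at 9.68, 12.5, 18.8 and 12.7 CPM on LT-HFD. The ranges overlapped in both genotypes. With library totals in place of TMM factors the count of 3 was 0, and it was 6 without replicate 4 labelled IRF5-KO on ST-HFD. It was 1 without replicate 2 or 3 of WT on LT-HFD, of those labelled IRF5-KO on LT-HFD or of those labelled IRF5-KO on ST-HFD, and 1 without WT ST-HFD replicate 2. The median of 0.13 ranged from 0.07 to 0.21 when single libraries were left out, and was lowest without replicate 3 and highest without replicate 4 labelled IRF5-KO on ST-HFD.

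**Figure D5:**
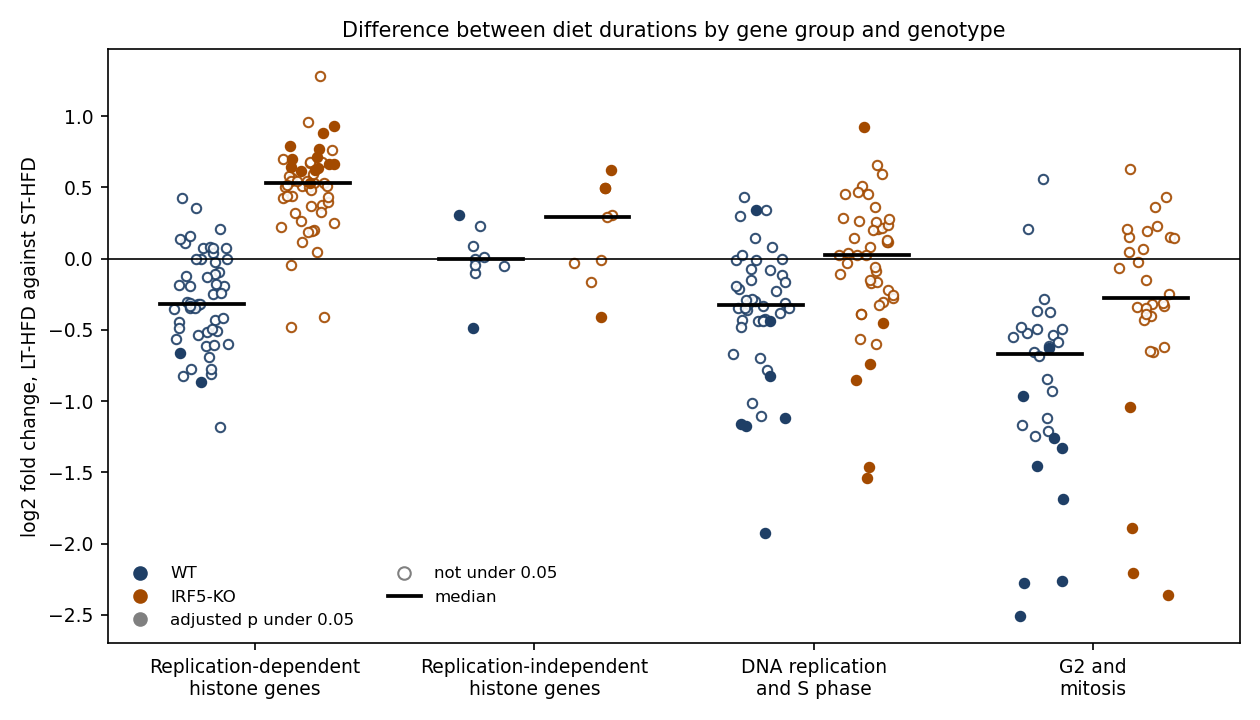
Change on the log2 scale between ST-HFD and LT-HFD, above 0 where LT-HFD was higher, in WT and in the libraries labelled IRF5-KO for replication-dependent histone genes, S-phase genes, G2 and mitosis genes and replication-independent histone genes. Points are genes, filled where the adjusted p was under 0.05, and lines are medians, which were -0.32 and 0.53 for the replication-dependent histone genes and -0.67 and -0.28 for G2 and mitosis genes.

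The histone genes were set beside other genes of the cell cycle. The summed S-phase genes were at 1258 ± 175.9 CPM in WT and 1121 ± 174.4 CPM in the libraries labelled IRF5-KO on ST-HFD, and at 1009 ± 200.7 and 1069 ± 119.4 CPM on LT-HFD (SD, n = 4 each). Of 46 tested, 1 rose and 6 fell with longer HFD in WT, and 1 rose and 5 fell in the libraries labelled IRF5-KO, with median log2 fold changes of -0.33 and 0.02. Over all genes, 12.1% rose and 13.2% fell in WT, and 15.6% rose and 17.2% fell in the libraries labelled IRF5-KO, so the S-phase counts were near or below the background. The summed genes of G2 and mitosis were at 958.4 ± 352.8 and 841.7 ± 204.1 CPM on ST-HFD and at 383.9 ± 120.2 and 466.4 ± 92.4 CPM on LT-HFD. Of 30 tested, 9 fell in WT and 4 in the libraries labelled IRF5-KO, and 0 rose. Their medians were -0.67 and -0.28, and 11 of 30 estimates in the libraries labelled IRF5-KO were above 0. Mki67, the proliferation marker, fell with log2 fold changes of -2.51 in WT and -2.36 in the libraries labelled IRF5-KO, and Cenpf, a kinetochore protein of mitosis, with -2.28 and -2.21.

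The ratio of the histone sum to the sum of G2 and mitosis genes was 1.61 ± 0.465 in WT and 1.41 ± 0.195 in the libraries labelled IRF5-KO on ST-HFD, and 3.29 ± 0.453 and 3.53 ± 0.402 on LT-HFD (SD, n = 4 each). It ranged from 1.14 to 2.30 on ST-HFD and from 2.76 to 3.97 on LT-HFD, without overlap. Mki67 carried much of the denominator, with group means of 314.3 and 285.3 CPM on ST-HFD and 55.3 and 55.4 CPM on LT-HFD. Without Mki67 in the denominator, an alternative chosen after seeing the data, the ratio was 2.40 ± 0.608 in WT and 2.14 ± 0.283 in the libraries labelled IRF5-KO on ST-HFD, and 3.88 ± 0.650 and 4.00 ± 0.417 on LT-HFD (SD, n = 4 each). Durations then overlapped in WT, where replicate 3 on ST-HFD was at 3.25 and replicate 3 on LT-HFD at 3.14, and did not overlap in the libraries labelled IRF5-KO, at 1.74 to 2.39 and 3.61 to 4.51. The ratio to the S-phase sum was 1.16 ± 0.189, 1.04 ± 0.129, 1.22 ± 0.0262 and 1.52 ± 0.162 in the same order of groups. For the genotype comparisons, 0 S-phase genes and 0 genes of G2 and mitosis passed the adjusted threshold in edgeR on either duration or in the interaction. Their medians in the interaction were 0.34 and 0.59, beside 0.81 for the replication-dependent histone genes.

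Replication-independent histone genes were steadier between libraries, with a summed level of 920.9 ± 31.6 CPM in WT and 876.5 ± 18.7 CPM in the libraries labelled IRF5-KO on ST-HFD and of 943.4 ± 29.7 and 952.9 ± 31.3 CPM on LT-HFD (SD, n = 4 each). Of 9 tested, H3f3a, which encodes H3.3, rose with longer HFD by 0.30 in WT (edgeR adjusted p = 0.0151) and by 0.50 in the libraries labelled IRF5-KO (edgeR adjusted p = 0.000314) on the log2 scale. H2afy, which encodes macroH2A, fell in both, with -0.49 (edgeR adjusted p = 0.00261) and -0.41 (edgeR adjusted p = 0.00737). H2afz, the H2A.Z gene, and Cenpa, the centromeric H3, rose in the libraries labelled IRF5-KO, by 0.49 (edgeR adjusted p = 0.0102) and 0.62 (edgeR adjusted p = 0.0339).

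Of 25 tested genes that transcribe, process or degrade histone messengers, 8 fell and 0 rose with longer HFD in WT, and 9 fell and 2 rose in the libraries labelled IRF5-KO, beside 13.2% and 17.2% of all genes that fell. Sympk, the scaffold of the cleavage complex, fell with log2 fold changes of -1.36 and -1.35, and Upf1, a helicase of histone messenger decay, with -0.89 and -0.90. Casp8ap2, a factor of histone locus bodies also called FLASH, fell with -0.83 and -0.73. Slbp had log2 fold changes of -0.19 and -0.26 and did not pass in either genotype. Of 20 histone chaperone and assembly genes, 1 rose and 6 fell in each genotype, among them Chaf1a of the replication-coupled assembly factor, with log2 fold changes of -1.64 in WT and -0.98 in the libraries labelled IRF5-KO. Rbbp4, a histone-binding subunit shared by assembly and deacetylase complexes, rose by 0.52 and 0.51. None of these genes passed the adjusted threshold of edgeR in the genotype comparisons or the interaction.

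Markers of other cells moved with diet duration. The summed fibroblast and preadipocyte markers were at 662.7 to 1627 CPM on ST-HFD and at 3033 to 8802 CPM on LT-HFD, and 8 of 8 tested rose in WT and 6 of 8 in the libraries labelled IRF5-KO. In the libraries labelled IRF5-KO on LT-HFD the sums were 7254, 3176, 5075 and 5611 CPM, so that replicate 2, with the highest histone sum, had the lowest. In WT on LT-HFD they were 3485, 3316, 3033 and 8802 CPM, highest in replicate 4, with the lowest histone sum, and lowest in replicate 3, with the highest histone sum. In the libraries labelled IRF5-KO on ST-HFD they were 1361, 1627, 1175 and 662.7 CPM, lowest in replicate 4, with the highest histone sum. In WT on ST-HFD they were 1020, 983.0, 1120 and 1016 CPM, lowest in replicate 2, with the lowest histone sum. The 7 summed B and plasma cell markers were at 4.81 to 20.6 CPM on ST-HFD and at 25.2 to 43.9 CPM on LT-HFD, without overlap, and 1 of 2 tested rose in each genotype. Other markers fell in the libraries labelled IRF5-KO, beside 17.2% of all genes that fell. They were 1 of 2 tested for T and NK cells, 1 of 1 for neutrophils and eosinophils, 1 of 5 for dendritic cells and 1 of 5 for adipocytes. Of 12 macrophage markers, 5 fell and 2 rose there. In WT, 2 of these 12 fell and 0 rose, and none of the other markers in these lists passed. The part of these cells in the histone values was not tested.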

How the data were processed

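The deposited table held raw counts per gene for 16 libraries. Per the labels and the study's methods, the authors sorted F4/80+ cells from epididymal fat, made ribosome-depleted, stranded total RNA libraries, trimmed reads with fastp 0.19.11 and aligned them to mm10 with STAR 2.7.3a. The annotation release, strand setting and treatment of reads with several matches are not given in the sources used here. Lost or doubled assignment among near-identical histone genes would change the values of single members.

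All genes were tested in edgeR 4.0.16 (R 4.3.3; TMM factors, filterByExpr, quasi-likelihood test, Benjamini-Hochberg adjustment over all genes tested). Genotype was fitted within each diet duration on 8 libraries, and duration and the interaction over 16. DESeq2 1.42.0, other scalings, no filter, a replicate block and each library left out in turn were alternatives. CPM values used TMM-scaled library sizes, and sums over members carry no test. Depth was 3279332 to 4958131 counts per library, which leaves low members with few counts. No libraries were duplicates by a chi-square comparison of their counts. The procedure was tested on simulated data.

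Groups and replicate numbers came from the labels. On ST-HFD, same-numbered WT and IRF5-KO libraries deviated together (r = 0.368, 0.483, 0.179 and 0.298 over 9765 genes), although some libraries with other numbers did too (up to 0.467). On LT-HFD they did not (r = -0.0696, -0.151, 0.0585 and 0.233).

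Named members were the 3 of each type with the highest mean CPM, each member with an adjusted p under 0.05, and up to 5 per comparison with the smallest unadjusted p under 0.05. For other lists the rule was the 3 genes with the highest mean CPM and up to 3 per comparison with the smallest unadjusted p; only some of these are given. Casp8ap2, Slbp and Lyz2, the members with estimates below 0 in the comparison of durations in IRF5-KO and those with few or no counts, or shown for their sequence or level per length, were named after their values were seen. Members and lists were chosen with earlier results of these data known. Symbols or identifiers of all 70 members matched the GENCODE M21 transcripts, 54 by identifier with the same symbol, 4 by identifier with another symbol and 12 by symbol alone. Protein sequences were not used here.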

Additional observations from a re-analysis of the deposited data

Results flagged for a closer look

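Of 120 groups of 4 libraries checked with Dixon's criterion, 3 held a library far from the others, and chance alone gives about 1 in 20. Hist1h2bn, an H2B gene, was at 40.4 CPM in replicate 4 labelled IRF5-KO on ST-HFD, while the other 3 libraries of that group lay between 26.6 and 28.0 CPM. This is the library that was highest for 44 of 54 members in its group. Hist1h3f, an H3 gene, was at 11.4 CPM in WT ST-HFD replicate 2, while the others lay between 18.2 and 19.6 CPM, and this library was lowest for 40 of 54 members. The summed replication-independent histone genes were at 999.7 CPM in replicate 2 labelled IRF5-KO on LT-HFD, against 935.0 to 940.5 CPM in the others.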

How the results depend on the processing

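For 20 members named by a test, 37 estimates were recomputed 773 times in all, of which 0 reversed, 106 lost the adjusted threshold and 9 gained it. Only estimates that passed in the main fit could lose it, and all of these were for duration. They were the 13 in the libraries labelled IRF5-KO, the 2 in WT and the 3 averaged over genotypes. The 37 were chosen by their p in these same libraries, so the lack of reversals is not separate support. With longer HFD in the libraries labelled IRF5-KO, Hist1h4c lost it in 15 of 23 alternatives, Hist1h1a and Hist1h3f in 12 each and Hist2h2ac in 9. Averaged over genotypes, Hist2h4 lost it in 12 and Hist1h2ac in 11, and in WT Hist1h2af lost it in 7 and Hist2h3b in 6. Members named for their level alone were not recomputed. With single libraries left out, the median log2 fold change of the members ranged from -0.57 to -0.17 on ST-HFD, 0.31 to 0.58 on LT-HFD and 0.63 to 1.01 in the interaction. For duration it ranged from -0.45 to -0.13 in WT, 0.36 to 0.74 in the libraries labelled IRF5-KO and 0.07 to 0.21 on average. The count of members called was 0 under each alternative for both genotype comparisons and the interaction. For LT-HFD against ST-HFD in WT, 2 members were called, 0 with the replicate block and 0 in the fit of the WT libraries alone, and 0 to 3 with single libraries left out. In the libraries labelled IRF5-KO, the 13 became 7 with library totals in place of TMM, and 4 to 21 with single libraries left out. Averaged over genotypes, the 3 became 0 with library totals, and 1 to 6 with single libraries left out. Replicate numbers do not pair mice across diet durations, so the replicate block there shares only a number. With the replicate block, the counts at an unadjusted p under 0.05 were 15, 17 and 28 for ST-HFD, LT-HFD and the interaction, beside 451 of 10958, 601 of 10987 and 623 of 11560 of all genes, and 10 members were called for duration in the libraries labelled IRF5-KO and 3 on average. Without a filter on low counts, 13 members had an unadjusted p under 0.05 on ST-HFD in place of 4, while all genes under that level rose from 202 of 10958 to 477 of 20131. With library totals in place of TMM, the mean summed levels were 1510, 1188, 1189 and 1614 CPM for WT and IRF5-KO on ST-HFD and WT and IRF5-KO on LT-HFD. With library totals and the 3 most counted features also removed, they were 1913, 1520, 1677 and 2270 CPM in the same order. Depth limits the members with few counts, and 16 of 70 could not be tested over all libraries.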

Other observations

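Other RNAs that end without a poly(A) tail, or are short, were read beside the histone genes. Of 17 listed, 6 were in the table and 5 were tested. Scarna2, which guides modification of spliceosomal RNA, rose with longer HFD by 0.50 in WT (edgeR adjusted p = 0.00461) and by 0.85 in the libraries labelled IRF5-KO (edgeR adjusted p = 4.06e-05) on the log2 scale, from means of 60.4 and 58.3 CPM on ST-HFD to 85.6 and 105.2 CPM on LT-HFD. Snora73b, a small nucleolar RNA, rose in the libraries labelled IRF5-KO by 1.32 (edgeR adjusted p = 0.0140), with a log2 fold change of 0.82 in WT that did not pass. Neat1, the paraspeckle RNA, fell in the libraries labelled IRF5-KO by 0.74 (edgeR adjusted p = 0.0302), with -0.15 in WT. Whether these changed differently between genotypes was tested in the interaction, where the adjusted p was 0.969 for each.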
